A study of Mus musculus with 2 samples.

Results

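N6-methyladenosine (m6A) is the commonest internal modification of messenger RNA. The 10 genes described here write, read or erase it. They were chosen by symbol (Mettl3, Mettl14, Wtap, Zc3h13, Ythdf1, Ythdf2, Ythdf3, Ythdc1, Alkbh5 and Fto), and each matched 1 row among the 43629 genes counted in each library. The series holds 2 libraries of polyadenylated RNA from mouse embryonic stem (ES) cells, replicates A and B. Both carry a Dgcr8 knockout made with paired CRISPR/Cas9 on a 129/Ola background and were taken at passage 7. Further codes in the sample titles (KO2 and d5) are not explained by the labels. With 1 group and no wild-type library among the samples analysed here, the values are levels in knockout cells and not a response to the knockout. Whether separate cultures gave A and B is not stated by the labels, so p-values measure only the difference of these samples, which may be technical.

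In outline, METTL3 is the catalytic subunit of the nuclear writer complex, METTL14 is its RNA-binding partner, and WTAP and ZC3H13 are regulatory subunits that hold the complex together and in the nucleus. Proteins with a YTH domain bind the mark. YTHDF1, YTHDF2 and YTHDF3 act in the cytoplasm on translation and decay, and YTHDC1 acts in the nucleus on splicing and export. ALKBH5 and FTO are demethylases that remove methyl groups from RNA. In ES cells the mark lies on transcripts of pluripotency factors and shortens their life, and cells without METTL3 leave the naive state poorly. The mark also meets the gene knocked out here. METTL3 methylates primary microRNA transcripts, and this aids their recognition by DGCR8, the RNA-binding partner of Drosha in the Microprocessor.

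Promoter sequence was looked at as a feature that the choice of genes did not use. RefSeq promoter windows of 300 bases (250 before to 50 after the transcript start, GRCm38.p6) were held for 8 of the 10 genes, with 11 windows in all. Mettl14 and Ythdf3 had none in the table used. The windows each hold 17 or more CG dinucleotides, shown in capitals. That number was reached by 31.4% of all windows in the table and by 62.6% of windows of expressed genes, defined below. Those printed are of Mettl3, the catalytic subunit (chr14:52305075-52305374, minus strand), and of the genes with the highest and the lowest level per length of the union of exons in these libraries, Ythdf1 (chr2:180920887-180921186, minus strand) and Fto (chr8:91313275-91313574, plus strand). Each reads 5′ to 3′ on the strand of its gene.
Mettl3: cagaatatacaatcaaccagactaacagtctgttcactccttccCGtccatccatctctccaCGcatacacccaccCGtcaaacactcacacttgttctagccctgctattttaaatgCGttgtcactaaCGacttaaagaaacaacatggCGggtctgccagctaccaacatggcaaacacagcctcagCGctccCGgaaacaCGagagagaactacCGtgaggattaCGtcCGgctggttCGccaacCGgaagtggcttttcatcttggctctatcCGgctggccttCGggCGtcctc
Ythdf1: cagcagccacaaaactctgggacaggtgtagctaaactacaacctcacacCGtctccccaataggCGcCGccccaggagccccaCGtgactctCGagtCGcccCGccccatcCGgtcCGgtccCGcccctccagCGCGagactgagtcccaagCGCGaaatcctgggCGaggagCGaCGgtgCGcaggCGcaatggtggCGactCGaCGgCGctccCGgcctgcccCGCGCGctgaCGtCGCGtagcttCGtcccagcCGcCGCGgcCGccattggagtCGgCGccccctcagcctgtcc
Fto: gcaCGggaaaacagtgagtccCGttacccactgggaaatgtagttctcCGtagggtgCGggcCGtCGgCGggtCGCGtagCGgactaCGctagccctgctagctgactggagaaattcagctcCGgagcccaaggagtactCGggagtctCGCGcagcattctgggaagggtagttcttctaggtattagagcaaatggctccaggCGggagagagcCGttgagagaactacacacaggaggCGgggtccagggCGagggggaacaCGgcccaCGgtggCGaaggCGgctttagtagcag
The windows hold 17 CG dinucleotides for Mettl3, 37 for Ythdf1 and 23 for Fto. Over the 11 windows, the ratio of observed to expected CG ran from 0.787 (Alkbh5) to 1.16 (Ythdc1), with a median of 0.973. The median was 0.384 over all 32851 windows of this length in the table and 0.753 over the 12427 windows of expressed genes, those at 1 or more CPM (counts of the gene per 1000000 counts in all) in each library. The lowest of the 11 was reached by 22.0% of all windows and by 44.9% of windows of expressed genes. Windows of expressed genes at large thus also stood above all windows. By number of CG dinucleotides, the median was 7 over all windows and 20 over those of expressed genes, so Mettl3 with 17 lay below the latter.

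Short motifs were searched on both strands as plain letters, and a match is a description and not a binding site. The GC box GGGCGG was in the windows of 6 of the 8 genes (all but Mettl3 and Fto), against 35.7% of all windows and 63.5% of those of expressed genes. The ETS core CCGGAA was in those of Mettl3, Wtap and Zc3h13 (14.9% of all windows and 27.2% of expressed). Mettl3 holds this core at 2 places. CCAAT was found for Wtap, Ythdf1 and Alkbh5 (37.4% and 38.0%) and the TATA box TATAAA for none of the 8 (13.6% and 6.65%). The windows of Wtap, and those of Zc3h13, overlap each other and so can share a match.

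All 10 genes were expressed in both libraries. Each was at 1 CPM or more in both, as were 30.6% of all genes counted, and the lowest single value was 33.6 CPM (Mettl14 in A). To set genes side by side, levels are given as RPKM, counts per kilobase of the union of a gene's annotated exons and per 1000000 counts of the library. The median over the 10 genes was 14.4 RPKM (11.1 in A and 16.1 in B), against 5.55 over the 14583 genes that reached 1 CPM in A or B. The levels spanned 4.30 RPKM (Fto) to 49.1 RPKM (Ythdf1), which are percentiles 40.0 and 91.7 of the 11984 protein-coding genes that reached 1 CPM in both. Values with ± give the mean and SD of both values (n = 2).

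**Figure D1:**
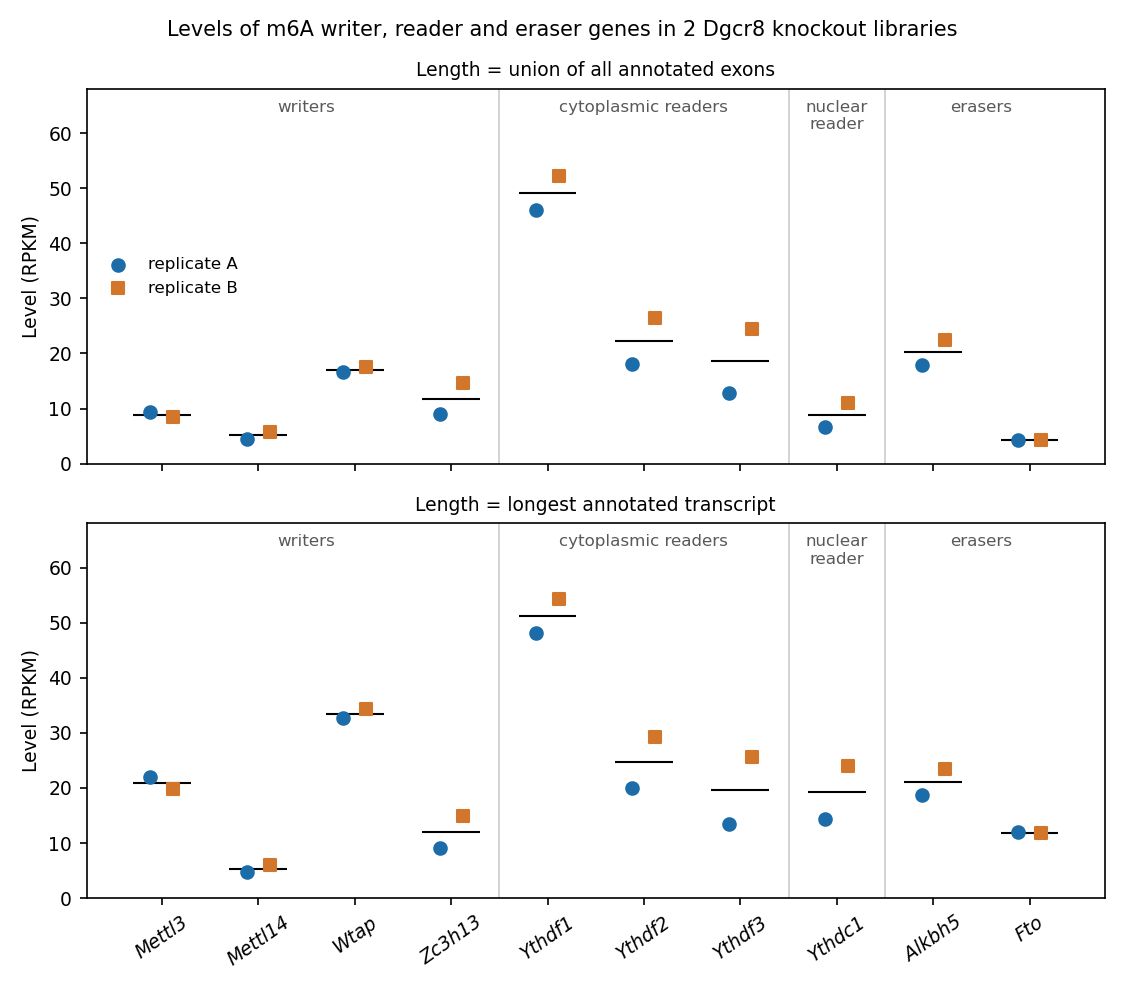
Level in RPKM (vertical axis, from 0) of each m6A gene (horizontal axis, by role) in replicate A (circles) and replicate B (squares), with lines at the mean of both. The upper plot divides by the union of exons and the lower by the longest transcript; Ythdf1 is highest in both plots, and Mettl3, Wtap, Ythdc1 and Fto stand higher in the lower plot.

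Among the writers, Wtap was the most abundant per length and Mettl14 the least. Mettl3 (ENSMUSG00000022160, GRCm38 chromosome 14, 52294841 to 52305128, minus strand) had 1323 counts in A and 1291 in B, or 9.35 and 8.39 RPKM. Mettl14 (ENSMUSG00000028114, chromosome 3, 123368297 to 123386108, minus strand) had 936 and 1304 counts, or 4.53 and 5.80 RPKM. The 2 subunits form a dimer in the cell, and Mettl3 RNA was the higher per length in both libraries without overlap, at 8.87 ± 0.682 against 5.16 ± 0.897 RPKM. The ratio of Mettl3 to Mettl14 was 2.07 in A (exact 95% interval 1.90 to 2.25) and 1.45 in B (1.34 to 1.56). These intervals do not meet, so the libraries differ in this ratio by more than counting error. Divided by the longest transcript in place of the union of exons, the ratio was 4.71 in A and 3.30 in B, because the exons annotated for Mettl3 add up to 5076 bases over 15 transcripts while its longest transcript has 2159. Transcript GC content is 49.3% for Mettl3 and 41.2% for Mettl14. Less the trend of all tested genes over GC content and length, the log2 ratio of B to A was 0.02 for Mettl3 and -0.25 for Mettl14, in place of -0.06 and 0.44.

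Wtap (ENSMUSG00000060475, chromosome 17, 12966796 to 12994169, minus strand), whose protein carries the dimer to nuclear speckles, had 2905 counts in A and 3309 in B. That is 16.7 and 17.5 RPKM, or 17.1 ± 0.553. It exceeded Mettl3 by 1.78-fold in A and 2.08-fold in B, and Mettl14 by 3.69-fold and 3.01-fold. Zc3h13 (ENSMUSG00000022000, chromosome 14, 75284373 to 75344426, plus strand), which bridges WTAP to other subunits and keeps the complex in the nucleus of ES cells, had 1570 counts in A and 2793 in B. Per length that is 8.97 and 14.7 RPKM, so that it lay below Mettl3 in A and above it in B. Mettl3 and Zc3h13 therefore cannot be ordered per union of exons. Per longest transcript Mettl3 (22.0 and 19.7 RPKM) lay above Zc3h13 (12.1 ± 4.11) in both libraries without overlap.

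Of the cytoplasmic readers, Ythdf1 held the highest level of the 10 genes. Ythdf1 (ENSMUSG00000038848, chromosome 2, 180904377 to 180920949, minus strand), tied to translation of marked transcripts, had 4262 counts in A and 5243 in B, or 46.1 and 52.1 RPKM. Ythdf2 (ENSMUSG00000040025, chromosome 4, 132184912 to 132212303, minus strand), which recruits the CCR4-NOT deadenylase to marked transcripts, had 2308 and 3663 counts, or 18.1 and 26.4 RPKM. Ythdf3 (ENSMUSG00000047213, chromosome 3, 16183212 to 16217037, plus strand) had 1921 and 3964 counts, or 12.9 and 24.4 RPKM. Ythdf1 stood above both paralogs in each library, and the ranges of Ythdf2 and Ythdf3 overlapped.

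Of the summed RPKM of these 3 paralogs, Ythdf1 made up 59.8% in A and 50.7% in B, Ythdf2 23.5% and 25.7%, and Ythdf3 16.7% and 23.7%. In counts, where an exact 95% Clopper-Pearson interval can be given, the share of Ythdf1 was 50.2% in A (49.1 to 51.3) and 40.7% in B (39.9 to 41.6). The share of Ythdf3 was 22.6% in A (21.7 to 23.5) and 30.8% in B (30.0 to 31.6). Ythdf1 thus held a smaller and Ythdf3 a larger share in B, beyond counting error, while Ythdf2 differed less (27.2% and 28.5% of counts). These shares do not depend on how the libraries are scaled to each other. Transcript GC content, which moved with the ratio of B to A across all genes, is 38.4% for Ythdf3 and 49.1% for Ythdf1. Less the trend of all tested genes over GC content and length, the log2 ratio of B to A was 0.34 for Ythdf3 and 0.25 for Ythdf1, in place of 1.01 and 0.27.

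**Figure D2:**
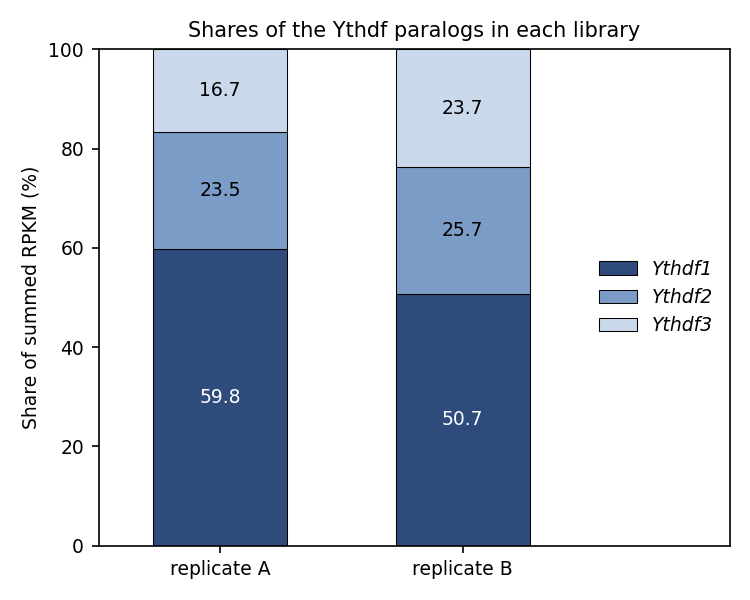
Share (%) of Ythdf1, Ythdf2 and Ythdf3 in the summed RPKM of the 3 genes (vertical axis) in replicates A and B (bars, 1 library each, with no error bar). Ythdf1 is the largest part of both bars, at 59.8% in A and 50.7% in B, and the part of Ythdf3 is larger in B.

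Ythdc1 (ENSMUSG00000035851, chromosome 5, 86804221 to 86836659, plus strand), the nuclear reader, had 2533 counts in A and 4590 in B. Per length it reached 6.66 and 11.1 RPKM, or 8.87 ± 3.13. By counts per library it was among the higher genes, at 90.9 and 151 CPM, but its annotated exons add up to 13651 bases against 6313 for its longest transcript. Per longest transcript it reached 19.2 ± 6.77 RPKM.

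Of the erasers, Alkbh5 was higher than Fto in both libraries. Alkbh5 (ENSMUSG00000042650, chromosome 11, 60536381 to 60558512, plus strand), a nuclear demethylase of m6A, had 2994 counts in A and 4081 in B, or 17.9 and 22.5 RPKM. Fto (ENSMUSG00000055932, chromosome 8, 91313525 to 91668439, plus strand), which also acts on a related methyl mark beside the cap, had 1583 and 1674 counts, or 4.36 and 4.24 RPKM. The ratio of Alkbh5 to Fto was 4.12 in A (exact 95% interval 3.87 to 4.38) and 5.31 in B (5.01 to 5.62). Per longest transcript it was 1.55 (1.46 to 1.65) and 2.003 (1.89 to 2.12), so its direction did not depend on the length used but its size did.

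Ordered by mean RPKM, the genes ran Ythdf1, Ythdf2, Alkbh5, Ythdf3, Wtap, Zc3h13, Ythdc1, Mettl3, Mettl14 and Fto. Among neighbours in this order, the ranges over both libraries were apart between Ythdf1 and Ythdf2, Wtap and Zc3h13, Mettl3 and Mettl14, and Mettl14 and Fto. The other neighbours overlapped. Of all 45 pairs, 37 did not overlap. Per longest transcript, Wtap stood at rank 2 and Mettl3 at rank 5, Mettl14 became the lowest gene below Fto, and 32 pairs were apart. Ythdf1 was first under both lengths.

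Nearest to Mettl3 in level, by distance of log2 RPKM over both libraries among 11984 protein-coding genes, were Clcn2 (distance 0.01; 9.34 and 8.33 RPKM in A and B), Ppm1d (0.03; 9.23 and 8.26) and Ubl4a (0.03; 9.37 and 8.20). With 2 libraries this likeness describes 2 numbers per gene and nothing more.

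Parts of the annotation limit these counts. Exons of Mettl3 overlap those of Tox4, a gene on the opposite strand, over 933 bases (18.4% of the Mettl3 union), and Tox4 had 2352 counts in A and 2891 in B. The libraries are reverse-stranded per the labels, but whether the counting used strand is not given in the sources used here, so the Mettl3 level is uncertain by reads in that stretch. Wtap has 3 processed pseudogenes that match its longest transcript at 90% identity or more over at least 300 bases. Of these, Gm14292 (99.3% identical over 456 bases) had 399 counts in A and 620 in B, which may include reads of Wtap. The 2 such pseudogenes of Ythdf2 had 3 and 5 counts in all. Exons of Ythdc1 and Fto overlap other genes over less than 5% of their length.

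Several facts of the libraries bear on the comparison of A with B. Library A held 27872396 counts in all and library B 30327146. Dgcr8 itself had 1253 and 1942 counts (45.0 and 64.0 CPM), which do not check the knockout because gene counts do not show which exons were read. All 8 ES cell markers (such as Pou5f1, Nanog and Sox2) passed 1 CPM in A and in B, with a summed level of 9343 CPM in A and 6151 in B. Most of that gap was 1 gene, Dppa5a (4252 and 1767 CPM), and by CPM 1 of the 8, Esrrb, was higher in B (638 and 642). Primitive endoderm markers summed to 60.0 CPM in A and 179 in B. Of these markers 4 of 8 reached 1 CPM in both and 7 of 8 were higher in B. Lama1 alone (47.3 and 142 CPM) made up most of both sums and of their gap. Gata4 was lower in B (7.10 and 4.91 CPM). Fibroblast markers summed to 48.0 and 30.1 CPM (4 of 7 markers above 1 CPM in both), and neuroectoderm markers to 118 and 86.8 CPM (4 of 5), with Neurog2 at 0 counts in A and 1 in B. In bulk RNA, fewer cells of a type and less RNA per cell cannot be told apart.

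The replicates were compared gene by gene, which measures how far these libraries differ beyond counting error and says nothing of a condition. Of the 10 genes, 8 differed (exact binomial test on TMM-scaled counts, Benjamini-Hochberg adjusted p under 0.05 over 14583 genes), against 76.8% of all genes tested. A count of 8 of 10 is near that background. All 8 were higher in B, a direction taken by 38.4% of all genes tested, or 5602 of the 11201 genes called. Among the 4078 tested genes within the CPM range of the 10, 86.1% were called, and 2089 were higher in B and 1424 in A. Scaled by library totals, 8 were again called (77.4% of all), 7 higher in B (33.3% of all) and 1, Mettl3, higher in A (44.1% of all). At least 1.5-fold apart were 4 genes, all higher in B (18.5% of all genes tested). The log2 ratio of B to A was taken between values of log2(TMM-scaled CPM + 0.5). Its median was 0.43 over the 10 genes and -0.01 over all genes tested, and the median size of the ratio regardless of sign was 0.43 against 0.44. There is no replicate check of such a difference between single libraries.

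Before the trend over GC content and length was subtracted, the largest differences lay in readers. Ythdf3 had 68.9 CPM in A and 131 in B and was 2.02-fold higher in B (log2 ratio 1.01, exact binomial test, adjusted p = 2.6e-149). Ythdc1 had 90.9 and 151 CPM, 1.77-fold higher in B (0.83, adjusted p = 6.5e-123 by the same exact test). Zc3h13, a writer subunit, had 56.3 and 92.1 CPM, 1.74-fold higher in B (0.80, adjusted p = 3.2e-71). Ythdf2 followed, at 82.8 and 121 CPM and 1.55-fold higher in B. Mettl14 (1.36-fold), Alkbh5 (1.33-fold), Ythdf1 (1.21-fold) and Wtap (1.12-fold) were higher in B by less.

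Mettl3 and Fto did not pass the test. Mettl3 had 47.5 CPM in A and 42.6 in B, with a log2 ratio of -0.06 (exact 95% interval -0.18 to 0.05, adjusted p = 0.29). Fto had 56.8 CPM in A and 55.2 in B, with a log2 ratio of 0.05 (exact 95% interval -0.05 to 0.15, adjusted p = 0.35). Their intervals hold differences of up to about these limits in either direction, so equal levels are not shown. The catalytic subunit thus stayed within counting error under TMM scaling while the other 3 writers were called higher in B. With library totals Mettl3 was instead called higher in A, and Wtap was not called. Less the trend over GC content and length, the log2 ratio of Mettl3 (0.02) lay above those of Mettl14 (-0.25) and Wtap (-0.29) and below that of Zc3h13 (0.61).

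**Figure D3:**
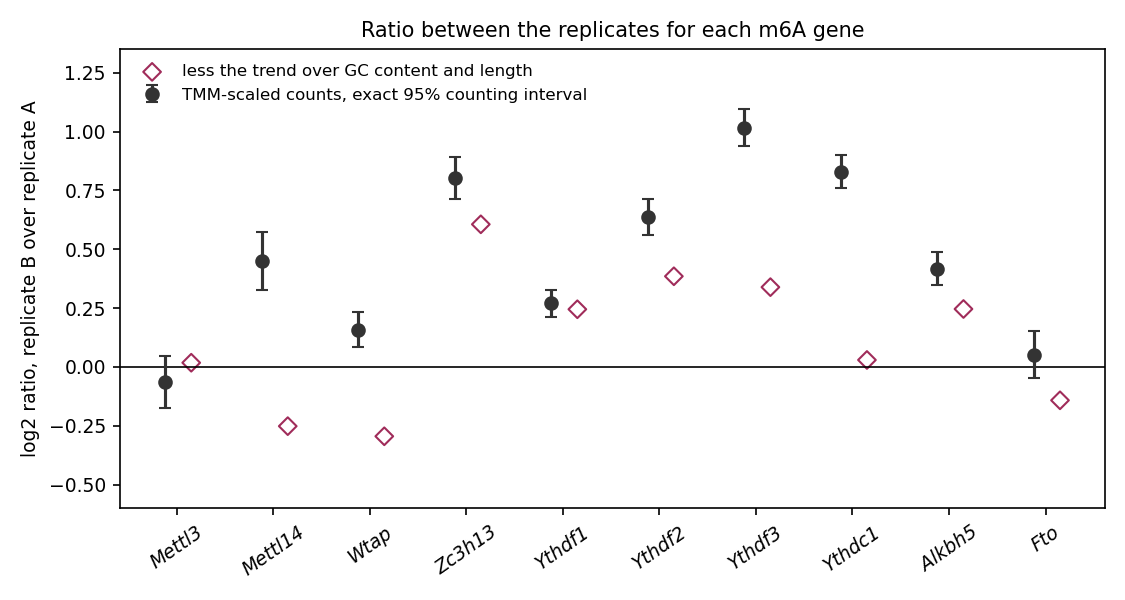
Log2 ratio of replicate B over replicate A (vertical axis) for each m6A gene (horizontal axis), as TMM-scaled counts without a pseudocount with exact 95% intervals of counting error (filled circles and bars), and as the ratio with a pseudocount of 0.5 less the trend over GC content and length (open diamonds). Ythdf3, Ythdc1 and Zc3h13 lie highest as filled circles, and Mettl3, Mettl14, Wtap and Fto have a filled circle and a diamond of opposite sign.

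GC content of the transcript moved with the ratio across all genes. By deciles of GC content, the median log2 ratio fell from 0.53 in the decile with the least GC to -0.57 in that with the most. Of the 10 genes, 4 (Mettl14, Wtap, Ythdf3 and Ythdc1) lay in the lowest decile and none above decile 6. Across the 10 genes GC content and ratio had a Spearman rho of -0.39, and across 14509 tested genes -0.50. Genes are not independent replicates, and all share the same pair of libraries. Less the trend over GC content and length of all tested genes, the median log2 ratio of the 10 genes was 0.14 in place of 0.43, against 0.01 over all genes tested, and 7 of 10 lay above 0 (50.4% of all). Among the 4078 tested genes within the CPM range of the 10, the median was 0.09 and 58.9% lay above 0. Of the 7, Mettl3 (0.02) and Ythdc1 (0.03) were close to 0.

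After this subtraction the genes came in another order. Zc3h13 kept most of its ratio (0.61 in place of 0.80), Ythdf2 0.39 in place of 0.63 and Ythdf3 0.34 in place of 1.01. Ythdc1, which has the lowest GC content of the 10 (37.6%), was left with 0.03 in place of 0.83. Mettl14 turned to -0.25 and Wtap to -0.29. Mettl14 and Wtap thus had lower ratios than the fitted trend at their GC content and length. The part of GC content, of RNA quality and of the endoderm markers given above in these ratios was not tested beyond this subtraction.

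**Figure D4:**
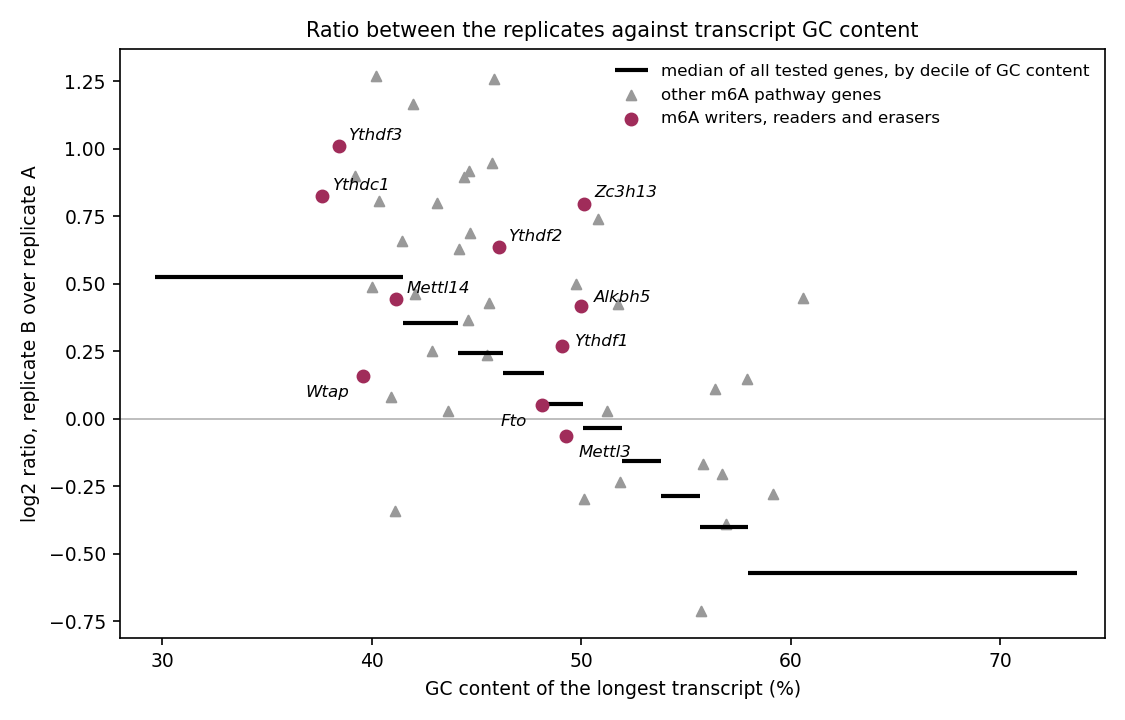
Log2 ratio of replicate B over replicate A, with TMM scaling and a pseudocount of 0.5 CPM (vertical axis), against GC content of the longest transcript in percent (horizontal axis). Bars are medians of all tested genes by decile of GC content, falling from 0.53 to -0.57; circles are the 10 m6A genes and triangles 35 other genes of the pathway.

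Other genes of the pathway were described from a list of 35 symbols by role. All 35 reached 1 CPM in A and in B, with a median of 11.2 RPKM. Between the libraries 33 differed, of which 26 were higher in B and 7 in A (median log2 ratio 0.43). Of all genes tested 76.8% differed, 38.4% in each direction. Less the trend over GC content and length, the median of the 35 was 0.23, and 25 lay above 0 (50.4% of all genes tested). With library totals 22 were higher in B (33.3% of all genes tested) and 9 in A (44.1%). At least 1.5-fold apart were 13 that were higher in B and 1 in A, Alkbh7 (18.5% and 19.4% of all genes tested).

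The other subunits of the writer complex were all called higher in B, 4 of 4 (38.4% of all genes tested). Rbm15b passed narrowly under TMM scaling (log2 ratio 0.11, adjusted p = 0.036, exact binomial test). By library totals it had 58.9 CPM in A and 59.6 in B. Less the trend, Cbll1 was at -0.02 and Rbm15 at 0.15. Virma, the large scaffold subunit, was highest by the mean (8.06 RPKM in A and 14.3 in B), though in A it lay below Rbm15b (9.05) and Cbll1 (8.16). It had the largest log2 ratio of its role, 0.92, or 0.43 less the trend. Rbm15, which guides the complex to RNA, was lowest (3.85 and 5.62 RPKM). The range of Virma overlapped that of Zc3h13, and the range of Rbm15 that of Mettl14. Of 6 other methyltransferase genes, 4 were higher in B, 1 higher in A and 1 was not called (38.4% of all genes tested in each direction). Mettl5, which methylates ribosomal RNA, was highest (15.4 and 20.0 RPKM) and Mettl4 lowest (1.64 and 2.74). Mettl16, which methylates U6 RNA and Mat2a messenger RNA, had the largest ratio at 1.86-fold higher in B (9.32 and 16.3 RPKM). Less the trend, its log2 ratio was 0.09 in place of 0.90.

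All 9 other reader genes were called higher in B (38.4% of all genes tested). Less the trend, 7 lay above 0, and Hnrnpa2b1 (-0.29) and Hnrnpc (-0.03) lay below. Hnrnpa2b1, proposed to link the mark on primary microRNAs to DGCR8, was highest at 222 RPKM in A and 212 in B. Its log2 ratio under TMM was 0.03, and the RPKM values, which use library totals, go the other way. Rbmx was lowest as counted (1.11 and 1.74 RPKM). The level of Rbmx is uncertain, because a pseudogene, Gm9771 (92.1% identical over 839 bases), has no row among the genes counted. Ythdc2, a helicase reader needed in meiosis, had the largest ratio at 2.24-fold (1.62 and 3.47 RPKM). Less the trend, its log2 ratio was 0.51 in place of 1.16, and the largest was that of Prrc2a (0.80). Hnrnpa2b1 thus stood above every one of the 10 genes, and Ythdc2 below all of them. Among 6 partners of the readers, 4 were higher in B, 1 higher in A and 1 was not called (38.4% of all genes tested in each direction). Cnot1, the scaffold of CCR4-NOT that YTHDF2 contacts, was 2.39-fold higher in B (12.6 and 28.3 RPKM), and a pseudogene, Gm6158, 99.8% identical over 903 bases, had 1489 counts in A and 1129 in B. Srsf3, a splicing factor that binds YTHDC1, was highest (62.3 and 61.9 RPKM). A pseudogene of Srsf3, Gm9761 (99.7% identical over 341 bases), had 2779 counts in A and 4099 in B. Rida was lowest by the mean (16.4 and 12.1 RPKM), though in A Cnot1 was lower. Less the trend, Cnot1 was at 0.72 in place of 1.26, and Srsf3, called higher in B, turned from 0.08 to -0.39.

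For the supply of the methyl donor, Mat2a, which makes S-adenosylmethionine, reached 81.2 RPKM in A and 133 in B and was called higher in B by 1.74-fold. Less the trend, its log2 ratio was 0.48 in place of 0.80. The level of Mat2a is uncertain, because a pseudogene, Gm9523 (95.2% identical over 1065 bases), has no row among the genes counted. Ahcy, which clears the product of methylation, was listed at 4.63 and 3.67 RPKM, with 362 and 312 counts. A near-identical gene, Gm4737 (99.7% over 2083 bases), had 6696 and 5714 counts, so the level of Ahcy is uncertain. Of the 7 other AlkB homologs, 3 were higher in B and 4 higher in A. Their median log2 ratio was -0.21, and 0.28 less the trend, with 5 of 7 above 0 (50.4% of all genes tested). Alkbh2, a DNA repair enzyme, was highest as counted (24.2 and 18.6 RPKM). Its level is uncertain, because 331 bases match Usp30, a gene on the opposite strand of the same chromosome, at 100% identity. Usp30 had 545 counts in A and 535 in B. Alkbh8, a transfer RNA methyltransferase, was lowest by the mean and in A (1.54 and 3.56 RPKM), with Alkbh6 marginally lower in B (3.55). Alkbh8 had the largest ratio of its role, 2.41-fold higher in B. Less the trend, its log2 ratio was 0.50 in place of 1.27, and the largest was that of Alkbh3 (0.70). As counted, Alkbh5 (17.9 and 22.5 RPKM) lay near Alkbh2, and their ranges over the libraries overlapped.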

How the data were processed

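Polyadenylated RNA was sequenced from 2 libraries of 1 group. The deposited values are counts per Ensembl gene, whole numbers that the authors did not normalize. STAR 2.4.2a, featureCounts 1.4.5-p1 and mm10 are named, without roles, in the submitters' processing notes. For the annotation release, the strand setting and reads with several matches, the answer is not given in the sources used here. Symbols, positions and lengths came from GENCODE M21 on GRCm38, the assembly of mm10 (42548 of 43629 identifiers matched).

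CPM and RPKM were computed with the totals of 27872396 (A) and 30327146 (B) counts. Intervals cover counting error only, as there were no molecular identifiers. A was set against B by an exact two-sided binomial test with TMM-scaled library sizes (edgeR 4.0.16, factors 1.03 and 0.968), for genes that reached 1 CPM in A or B. The GC and length trend was a quadratic least-squares fit over tested genes. Tested on simulated Poisson counts of 14583 genes, the binomial test called 41 of 50 genes changed 1.5-fold, 47 of 50 changed 2.0-fold and 6 of 14383 unchanged genes. The simulation held counting error only, which is what the test assumes. It therefore cannot show how often the test calls genes through other differences between 2 real libraries. Near-identical genes came from BLAST 2.17.0. Alternatives used library totals, size factors of DESeq2 1.42.0, other filters, pseudocounts and lengths, TPM, and Fisher's exact test.

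The 10 genes and all lists were chosen with earlier results of these data known. Of the 35 pathway genes, those of highest level, lowest level and largest ratio in each role were named, with the 3 genes nearest to Mettl3.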

Additional observations from a re-analysis of the deposited data

How the results depend on the processing

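No paired analysis was possible because the series holds 1 group. Per longest transcript the median of the 10 genes was 20.2 RPKM in place of 14.4, the Mettl3 to Mettl14 ratio averaged 4.01 in place of 1.76, and the Alkbh5 to Fto ratio 1.78 in place of 4.71. In TPM the median was 37.5, a change of unit. Asking for a 1.5-fold difference left 4 of the 8 called genes and 14 of the 33 pathway genes. Less the GC and length trend, log2 ratios changed sign for Mettl3 (0.018), Mettl14 (-0.25), Wtap (-0.29) and Fto (-0.14). With library totals, Fto turned to -0.041 (adjusted p = 0.46, exact binomial test), Mettl3 passed the test (-0.16, adjusted p = 0.0078, exact binomial test) and Wtap no longer did (0.07, adjusted p = 0.091, exact binomial test). No test was run on the ratios less the trend, so they carry no call, and among those that kept their sign Ythdc1 fell to 0.03 and Ythdf3 to 0.34. Under the other alternatives run, the remaining ratios kept sign and call. With 1 library left, the median level was 11.1 (A) or 16.1 RPKM (B). The ratios of single libraries ran from 1.45 to 2.07 for Mettl3 over Mettl14, 4.12 to 5.31 for Alkbh5 over Fto, 1.97 to 2.55 for Ythdf1 over Ythdf2, 2.14 to 3.59 for Ythdf1 over Ythdf3 and 1.08 to 1.41 for Ythdf2 over Ythdf3. At minimums of 5 and 10 CPM all 10 genes were still counted. Depth does not limit these genes, the lowest of which had 936 counts. The number of libraries does.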
